A study of Mus musculus with 6 samples.

Results

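Potassium channel subunits were examined in 6 mouse tumors by RNA sequencing. The members are the protein-coding genes of the deposited count table whose GENCODE M21 symbol starts with Kcn. They were found by symbol and biotype, and they number 65 of the 23508 genes in the table. Both groups are tumors of 4T1, a mouse mammary carcinoma line that stands in for human triple-negative breast cancer. In 3 tumors RNA was taken before neural activity in the tumor first peaked, and in the other 3 on the day of that first peak, to ask what the onset of activity changes. The labels name no treatment or engineered allele in either group. They give no host strain, sex, age or tumor day, so the time of collection and the peak cannot be told apart. They also leave unsaid whether each tumor is a different animal, so p-values cover no more than the spread among these 6 samples.

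Potassium channels let potassium ions pass along their gradient and so set the resting membrane potential and end electrical impulses. Pore-forming subunits fall into voltage-gated (Kcna to Kcnd, Kcnf to Kcnh, Kcnq, Kcns), calcium- or sodium-activated (Kcnma, Kcnn, Kcnt), inward rectifier (Kcnj) and 2-pore (Kcnk) families. Auxiliary subunits (Kcnab, Kcne, Kcnip, Kcnmb) tune gating or transport, and Kcnrg encodes a regulator of channel assembly. Outside neurons and muscle, potassium efflux contributes to cell volume control, proliferation, calcium entry and, in macrophages, to inflammasome activation.

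Total counts per tumor ran from 10591067 to 14549357. Levels are given as CPM, read counts scaled to the size of each library by TMM, and genes are ranked by level only per kilobase of annotated exon. The labelled tissue matched its markers: all 14 carcinoma epithelial markers were detected, with summed levels from 3410 to 5343 CPM. Of 14 neuron markers, 10 were in the table. Their sums were low, at 5.38, 3.13 and 5.33 CPM in before-peak tumors 1, 2 and 3. In with-peak tumors 1, 2 and 3 they were 7.15, 11.7 and 8.63 CPM, so the groups did not overlap. Of the 10, only 3 had enough reads to be tested, and all 3 had higher estimates with peak. Markers of 2 other cell types stood apart in single tumors. The 30 skeletal muscle markers summed to 2128 and 2122 CPM in with-peak tumors 2 and 3, against 146.5 to 505 CPM in the other 4 tumors. The 10 B and plasma cell markers summed to 537 CPM in before-peak tumor 3, against 5.01 to 95.7 CPM elsewhere. In bulk tissue, fewer cells of a type and less RNA per cell cannot be told apart.

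The promoters of Kcnk13, Kcnk2 and Kcnc4 are shown because Kcnk13 and Kcnk2 are the members with the smallest p-values in the comparison and Kcnc4 is the member most restricted to the tumors rich in muscle transcripts. Each window runs from 250 bases before to 50 bases after a RefSeq transcript start on build GRCm38.p6, 5′ to 3′ on the strand of the gene. RefSeq windows were matched by symbol for 49 of the 65 members. Capitals mark GAGGAA or its reverse complement TTCCTC, a core that is bound by PU.1, a transcription factor of myeloid cells.
Kcnk13, chr12:99964249-99964548, plus strand: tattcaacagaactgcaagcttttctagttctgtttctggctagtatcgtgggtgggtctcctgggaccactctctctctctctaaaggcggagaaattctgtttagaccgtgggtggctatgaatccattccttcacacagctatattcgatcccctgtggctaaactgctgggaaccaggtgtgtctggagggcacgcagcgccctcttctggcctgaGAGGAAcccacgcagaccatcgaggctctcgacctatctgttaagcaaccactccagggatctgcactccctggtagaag
Kcnk2, chr1:189402224-189402523, minus strand, 1 of 4 listed starts, at the GENCODE gene start: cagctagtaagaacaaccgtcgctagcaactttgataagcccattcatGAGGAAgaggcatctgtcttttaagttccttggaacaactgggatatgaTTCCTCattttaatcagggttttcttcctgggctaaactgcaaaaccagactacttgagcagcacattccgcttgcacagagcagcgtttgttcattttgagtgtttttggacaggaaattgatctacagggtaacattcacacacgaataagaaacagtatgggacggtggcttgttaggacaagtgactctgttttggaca
Kcnc4, chr3:107458849-107459148, minus strand, 654 bases from the GENCODE gene start: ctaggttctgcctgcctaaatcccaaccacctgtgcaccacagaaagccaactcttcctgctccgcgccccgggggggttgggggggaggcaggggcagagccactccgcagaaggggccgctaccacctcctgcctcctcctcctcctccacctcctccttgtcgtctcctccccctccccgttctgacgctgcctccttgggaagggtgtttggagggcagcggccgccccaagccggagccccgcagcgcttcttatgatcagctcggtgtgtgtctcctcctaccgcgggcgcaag
The Kcnk13 window held 1 such match, the Kcnk2 window held 2 that do not overlap, and the Kcnc4 window held 0. Either strand of 28.3% of all 32851 promoter windows held the motif. The E-box CAGCTG of myogenic factors, and CTA followed after 4 bases of any kind by TAG, as MEF2 factors bind in muscle, were searched on both strands. They occur in 16.3% and 3.69% of all windows and in none of these 3. A match describes the letters only and shows no binding.

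Most reads of the family came from few genes, a share that also grows with transcript length. Summed over the 65 members, the level was 363, 371 and 357 CPM in before-peak tumors 1, 2 and 3 and 374, 363 and 324 CPM in with-peak tumors 1, 2 and 3, so the groups overlapped. Kcnn4, the intermediate-conductance calcium-activated channel of immune and epithelial cells, alone gave 26.7% to 38.6% of that sum. Together with Kcnab2, Kcnk1, Kcnk5 and Kcnk2 it gave 61.0% to 75.9%.

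Per kilobase, Kcnn4 ranked first, at 18.7 to 28.0 CPM per kilobase over the 6 tumors with a median of 21.02. Kcnk1, the weak inward rectifier TWIK-1, followed at 15.5 to 22.4 with a median of 17.9, and the 2 ranges overlapped. Kcnab2, a cytoplasmic beta subunit of voltage-gated channels, was at 7.09 to 11.1 CPM per kilobase, below every value of Kcnk1. Kcnk5 was next at 5.89 to 13.7, a range that overlapped that of Kcnab2. In the whole order of tested members, ranges of neighbours were apart only between Kcnk1 and Kcnab2 and between Kcnh7 and Kcnma1, so most ranks are not resolved. By reads, which set how precisely a member is measured, only 7 members reached 10 CPM on average, and 22 of the 32 members that passed the filter on low counts were below 5 CPM.

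**Figure D1:**
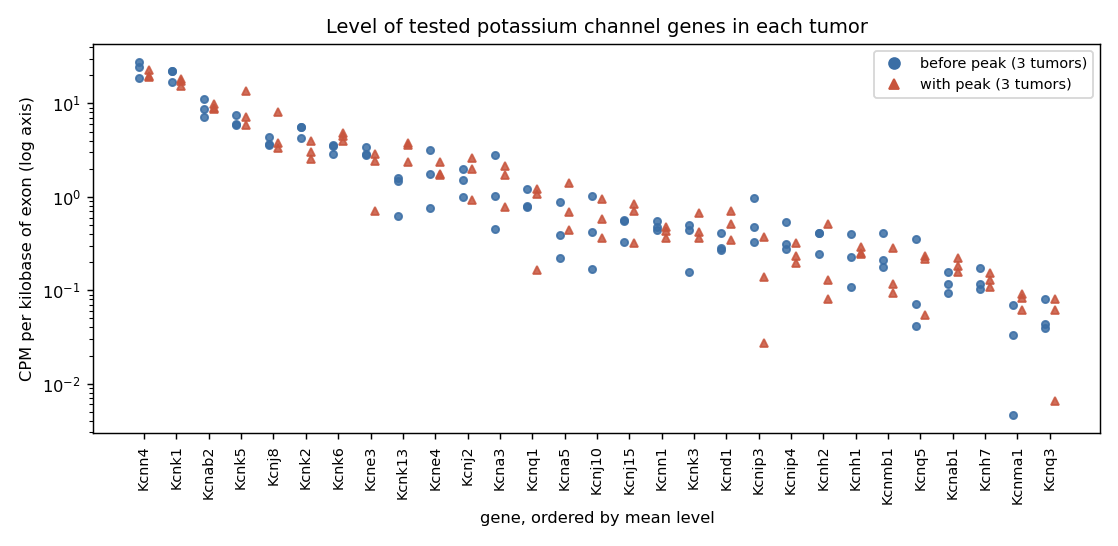
Levels of 29 tested members in each tumor, in CPM per kilobase of exon on a log axis, ordered by mean level; circles are the 3 before-peak and triangles the 3 with-peak tumors. Kcnn4 and Kcnk1 lie highest, and most members have overlapping groups.

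The filter kept 32 of the 65 members, and the other 33 had 7 to 65 counts over all 6 tumors together. No member passed the edgeR quasi-likelihood test over all 16755 genes at an adjusted p under 0.05, where 0% of genes passed as higher and 0% as lower. At an unadjusted p under 0.05, 2 of 32 members were higher with peak, Kcnk13 and Kcnk6, against 6.12% of all tested genes, and 1 was lower, Kcnk2, against 3.38%. These shares are near those of all genes. The background split depends on scaling: with library size alone, 768 genes were higher and 1020 lower at that p, in place of 1025 and 567, and the members numbered 1 higher and 1 lower.

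The groups did not overlap for 3 members higher with peak (Kcnk13, Kcnk6 and Kcnab1), against 8.13% of all tested genes, and for 1 lower member (Kcnk2), against 7.38%. Of the 32 members, 17 had a log2 fold change (with peak over before peak) above 0, with a median of 0.05. Over all tested genes 47.7% were above 0 and the median was -0.02. DESeq2, run as an alternative, called 1 member, Kcnk13, where it called 1.48% of genes higher and 0.146% lower.

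**Figure D2:**
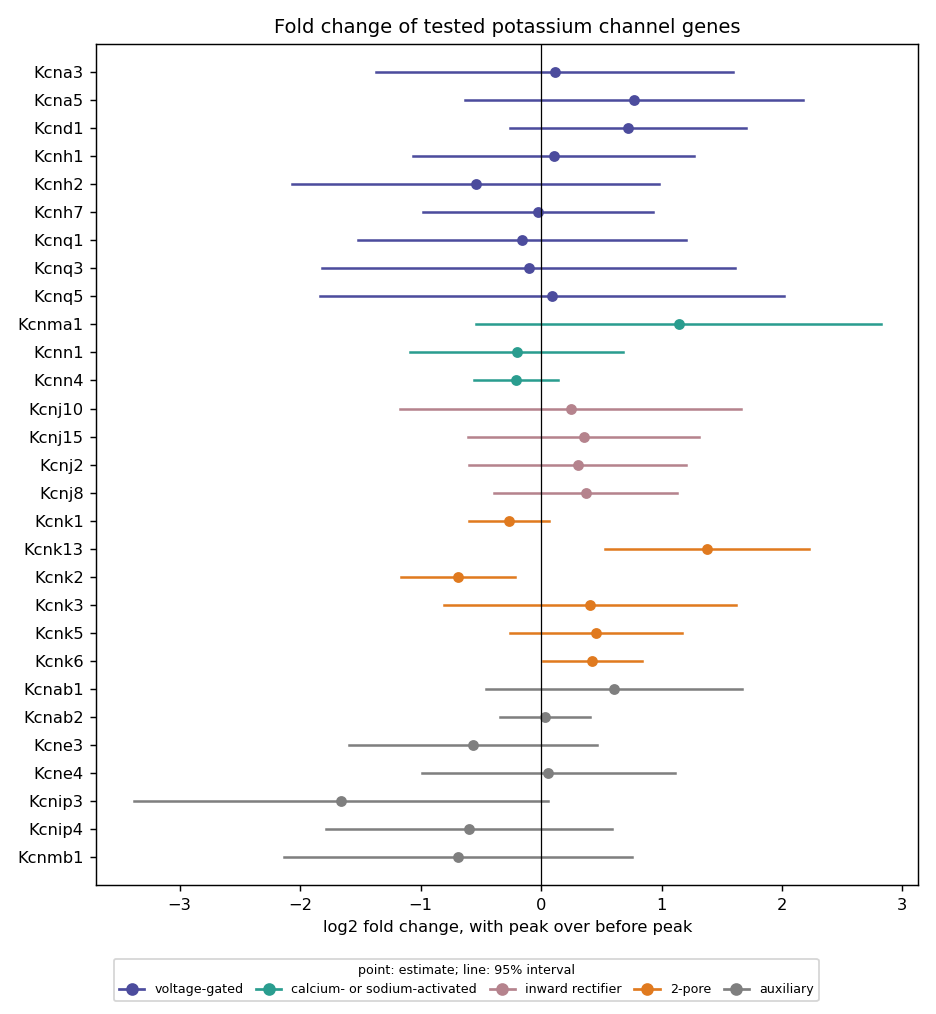
Log2 fold change of 29 tested members, with peak over before peak, with the 95% interval as a line and the family as the color. The intervals of Kcnk13, Kcnk2 and Kcnk6 lie on one side of 0, and the other 26 span it.

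The 2-pore family held the 3 members with the smallest p-values, and they did not share a direction. Of its 10 members 6 were tested, 4 above 0 and 2 below, with a median log2 fold change of 0.42. The summed level of the family was 101 to 125 CPM before the peak and 102 to 131 CPM with it. A Kcnk subunit carries 2 pore domains and works as a dimer that conducts at rest.

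Kcnk13 encodes THIK-1, the main 2-pore channel of microglia in the mouse brain (ENSMUSG00000045404, chromosome 12, 99964499 to 100062682, plus strand). It was at 4.98, 1.96 and 4.58 CPM in before-peak tumors 1, 2 and 3 and at 7.29, 11.6 and 11.1 CPM in with-peak tumors 1, 2 and 3. Every with-peak tumor was above every before-peak tumor, and with-peak tumor 1 was the nearest to the before-peak range. The means were 3.84 ± 1.64 and 9.98 ± 2.34 CPM (SD, n = 3), a log2 fold change of 1.38 (SE 0.38, 95% interval 0.53 to 2.22). By edgeR the adjusted p was 0.318, and by DESeq2 it was 0.0408.

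The 14 macrophage and monocyte markers summed to 3630, 2242 and 2912 CPM in before-peak tumors 1, 2 and 3 and to 4129, 5877 and 4592 CPM in with-peak tumors 1, 2 and 3. All 14 had a log2 fold change above 0, and none was at 0 in any tumor. Ranked from low to high, the 6 tumors stood in the same order for this sum and for Kcnk13. The neuron marker sum, far lower at 3.13 to 11.7 CPM, gave that order too. The part of macrophage or neuron RNA in the Kcnk13 difference was not tested. Without with-peak tumors 2 and 3 together, the log2 fold change of Kcnk13 was 0.92 (edgeR unadjusted p = 0.138, adjusted p = 0.876).

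Kcnk6 encodes TWIK-2, which in mouse macrophages carries the potassium efflux that precedes inflammasome assembly. Its level was 14.8, 11.9 and 14.4 CPM in the before-peak tumors and 18.6, 20.1 and 16.5 CPM in the with-peak tumors, in replicate order. The groups did not overlap, but the gap between the nearest tumors was small. The log2 fold change was 0.43 (SE 0.18, 95% interval 0.01 to 0.84; edgeR adjusted p = 0.518). It was below an unadjusted p of 0.05 in 5 of 15 alternative fits, so its nominal call is the least stable of the 3.

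Kcnk2 encodes TREK-1, a channel opened by membrane stretch and lipids (ENSMUSG00000037624, chromosome 1, 189207930 to 189402273, minus strand). It was at 27.4, 27.3 and 20.8 CPM in before-peak tumors 1, 2 and 3 and at 14.9, 12.5 and 19.6 CPM in with-peak tumors 1, 2 and 3. Every with-peak tumor was below every before-peak tumor, although before-peak tumor 3 and with-peak tumor 3 were close. The means were 25.2 ± 3.79 and 15.6 ± 3.63 CPM (SD, n = 3), a log2 fold change of -0.69 (SE 0.21, 95% interval -1.16 to -0.22; edgeR adjusted p = 0.383; DESeq2 adjusted p = 0.154). The unadjusted p was under 0.05 in all 15 alternative fits, the largest being 0.0354, and the adjusted p passed in none.

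The libraries do not mark strand, and 604 of the 4943 exon bases of Kcnk2 lie opposite the antisense gene A430027H14Rik, which had 10 counts in all. Other described members lie opposite genes with more reads. Gm45875 had 579 counts against 3138 for Kcnk1, and Kcnq1ot1 had 1251 against 276 for Kcnq1. The gene 5730480H06Rik had 768 against 84 for Kcnip4, and Gca had 759 against 149 for Kcnh7. The shared exon bases are 179 of 2235 for Kcnk1 and 121 of 4093 for Kcnq1. They are 168 of 3627 for Kcnip4 and 696 of 15226 for Kcnh7. The values of these 4 members are uncertain through reads in the shared bases, and how many reads fall there is not known. Summed epithelial markers, which carcinoma cells and normal epithelium can both express, were 4937, 5343 and 4069 CPM before the peak and 4120, 3410 and 4945 CPM with it. The groups overlapped in that sum, although 12 of the 14 markers had a log2 fold change below 0. Whether the share of epithelial cells takes part in the Kcnk2 difference was not tested.

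**Figure D3:**
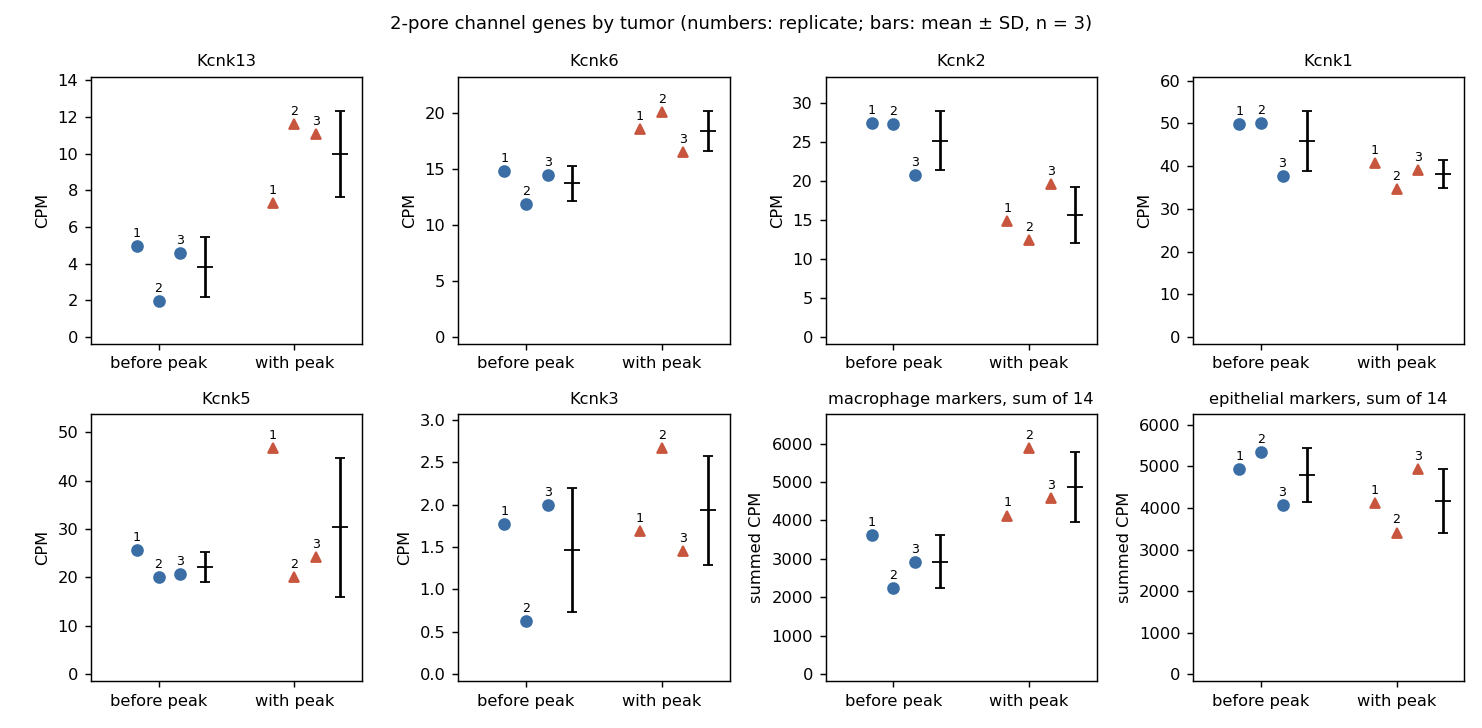
CPM of the 6 tested 2-pore channel genes in each tumor, with the summed CPM of the 14 macrophage and the 14 epithelial markers; points are tumors with their replicate number, and bars are mean ± SD (n = 3). Kcnk13 and Kcnk6 lie higher and Kcnk2 lower in every with-peak tumor, and Kcnk5 is high in with-peak tumor 1 alone.

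The other tested 2-pore members had overlapping groups. Kcnk1 was at 49.8, 49.95 and 37.7 CPM before the peak and at 40.8, 34.6 and 39.0 CPM with it for a log2 fold change of -0.27 (SE 0.15, 95% interval -0.60 to 0.07; edgeR adjusted p = 0.629). Kcnk5, the alkaline-activated TASK-2, was at 46.6 CPM in with-peak tumor 1 and at 20.1 to 25.6 CPM in the other 5. Its log2 fold change of 0.46 was 0.0047 without that tumor. Kcnk3, the acid-sensitive TASK-1, was at 0.63 to 2.66 CPM with no separation. The 4 members that were not tested, Kcnk4, Kcnk7, Kcnk10 and Kcnk12, stayed at or below 0.705 CPM in every tumor.

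Among the 7 calcium- and sodium-activated channels 3 were tested, and none passed at an unadjusted p under 0.05 by edgeR. Kcnn4 was at 124, 143 and 95.4 CPM in before-peak tumors 1, 2 and 3 and at 115, 99.6 and 99.05 CPM in with-peak tumors 1, 2 and 3. The highest and the lowest value were both in before-peak tumors. Its log2 fold change was -0.21 (SE 0.15; edgeR adjusted p = 0.719), with a 95% interval of -0.55 to 0.14. Kcnma1, the large-conductance BK channel, rests on 71 counts in all. It was at 0.56, 0.08 and 1.17 CPM before the peak and at 1.05, 1.41 and 1.55 CPM with it, for a log2 fold change of 1.14 (SE 0.75; adjusted p by edgeR 0.677). That value was 2.03 (unadjusted p = 0.0399 by edgeR) without before-peak tumor 3 and 0.62 without before-peak tumor 2. Kcnmb1, its beta subunit in smooth muscle, had a log2 fold change of -0.69 (SE 0.64). Kcnn1, a small-conductance calcium-activated channel, was at 1.65 to 2.51 CPM in all 6 tumors. The sodium-activated channels Kcnt1 and Kcnt2 fell below the filter.

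Among inward rectifiers, 4 of 10 members were tested and all 4 were above 0, at log2 fold changes of 0.24 to 0.37, with edgeR adjusted p of 0.769 or more. Kcnj8, the Kir6.1 pore of ATP-sensitive channels in pericytes and smooth muscle, was at 9.47, 9.08 and 11.2 CPM before the peak and at 9.54, 20.4 and 8.44 CPM with it. Only with-peak tumor 2 stood above the rest, and without it the log2 fold change was -0.14. The 12 smooth muscle and pericyte markers were also highest in that tumor, at 830 CPM in sum against 426.5 to 621 CPM elsewhere. That tumor also had the highest sums of endothelial markers, at 733 CPM against 320 to 492 CPM, and of fibroblast markers, at 19363 CPM against at most 13284 CPM. The same was true of the macrophage, adipocyte and mast cell sums, while among pericyte and smooth muscle markers Myh11, Notch3 and Cnn1 were not highest there. The part of these cell types in the Kcnj8 value was not tested. Kcnj2, the Kir2.1 channel that holds the resting potential, was at 5.38 to 10.9 CPM before the peak and at 5.04 to 14.1 CPM with it. Kcnj10 (Kir4.1 of glia) and Kcnj15 were at 0.92 to 5.46 CPM, with both groups spread over that range.

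Of 26 voltage-gated members 12 were tested, 5 above 0 and 7 below, with a median log2 fold change of -0.05 and a smallest edgeR adjusted p of 0.653. Summed over the family, they were at 23.6, 28.7 and 42.1 CPM before the peak and at 29.2, 37.2 and 27.1 CPM with it. The highest per kilobase was Kcna3, the Kv1.3 channel of lymphocytes. It was at 1.93, 0.86 and 5.33 CPM before the peak and at 3.23, 1.49 and 4.07 CPM with it (log2 fold change 0.11, 95% interval -1.37 to 1.59). The log2 fold change was 0.72 (SE 0.44) for Kcnd1 and 0.77 (SE 0.62) for Kcna5. Kcnh2, the hERG channel, was at -0.54 (SE 0.68) on the same scale, at -1.73 (unadjusted p = 0.0279 by edgeR) without with-peak tumor 1 and at -0.16 without with-peak tumor 3. Kcnq1 was at 3.21 to 4.93 CPM in the before-peak tumors and at 4.42, 5.01 and 0.68 CPM in the with-peak tumors. By subfamily letter, 3 of 5 Kcnh and 2 of 5 Kcna members were tested, as was the single Kcnd member, and no Kcnf, Kcng or Kcns member was. Within Kcnq, the neuronal M-current genes Kcnq3 and Kcnq5 were at -0.10 (SE 0.76) and 0.09 (SE 0.85). Within Kcnh, Kcnh1 was at 0.10 (SE 0.52) and Kcnh7 at -0.03 (SE 0.42), and no member of either letter had an unadjusted p under 0.05 by edgeR. Every 95% interval in this family spanned 0.

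Of 12 auxiliary members 7 were tested, 3 above 0 and 4 below. Kcnab2 was at 48.4, 39.5 and 62.0 CPM before the peak and at 48.4, 54.8 and 49.96 CPM with it. Its log2 fold change was 0.03 (95% interval -0.34 to 0.41), or -0.03 with library size alone. Kcnip3, the calcium sensor DREAM, was at 1.69, 1.17 and 3.42 CPM before the peak and at 0.49, 1.33 and 0.10 CPM with it for a log2 fold change of -1.66 (SE 0.76; unadjusted p = 0.0563 and adjusted p = 0.535 by edgeR). The groups overlapped through with-peak tumor 2, and without that tumor the value was -2.72 (unadjusted p = 0.0115 by edgeR). Without before-peak tumor 3 it was -1.12, and the unadjusted p was under 0.05 in 5 of 15 alternative fits, as for Kcnk6. Kcnab1 was higher in every with-peak tumor, at 0.80, 1.33 and 1.00 CPM against 1.54, 1.88 and 1.36 CPM (edgeR adjusted p = 0.728). Kcne3, a partner of Kcnq1 and Kcnc4, was at 4.35 to 6.03 CPM in 5 tumors and at 1.26 CPM in with-peak tumor 3, the tumor that was also lowest for Kcnq1. Kcnip4, another Kcnip calcium sensor, had a log2 fold change of -0.60 (SE 0.53). Kcne4 was at 2.01 to 8.33 CPM before the peak and at 4.56 to 6.35 CPM with it.

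With-peak tumors 2 and 3, the pair rich in skeletal muscle transcripts, were compared with the other 4 without a test. A gene was said to follow this pair when the lower of the 2 was at least 2 times the highest of the other 4. None of the 32 tested members did so, against 0.495% of all tested genes, while 23 of the 30 skeletal muscle markers did. Over all members, filtered or not, 2 of 65 did, Kcnc4 and Kcnj11, against 1.16% of all genes in the table. The nearest members outside the rule were Kcnk10 at a ratio of 1.68 and Kcnk13 at 1.52.

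Kcnc4 encodes Kv3.4, a fast-inactivating channel that pairs with Kcne3 in skeletal muscle. It had 0, 1 and 0 counts in before-peak tumors 1, 2 and 3 and 1, 12 and 23 counts in with-peak tumors 1, 2 and 3. Nearly all of its reads therefore came from the muscle-rich pair. Kcnj11 encodes Kir6.2, the pore of the ATP-sensitive channel in muscle and pancreatic beta cells. It had 1, 5 and 5 counts before the peak and 3, 18 and 13 counts with it. The ratio of the lower of the pair to the highest other tumor was 12.0 for Kcnc4 and 3.03 for Kcnj11 in CPM. No test of either gene is used as support, since these values chose them. Both enter the counts of members in some alternative fits, as stated there. Kcna7, a voltage-gated channel of muscle, had 3, 4 and 5 counts before the peak and 0, 3 and 6 with it, and did not follow the pair. Erythroid and platelet markers were high in the same tumors, at 1541 and 2214 CPM in sum against 164.5 to 339 CPM elsewhere. Which cells carry these channel transcripts was not tested.

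**Figure D4:**
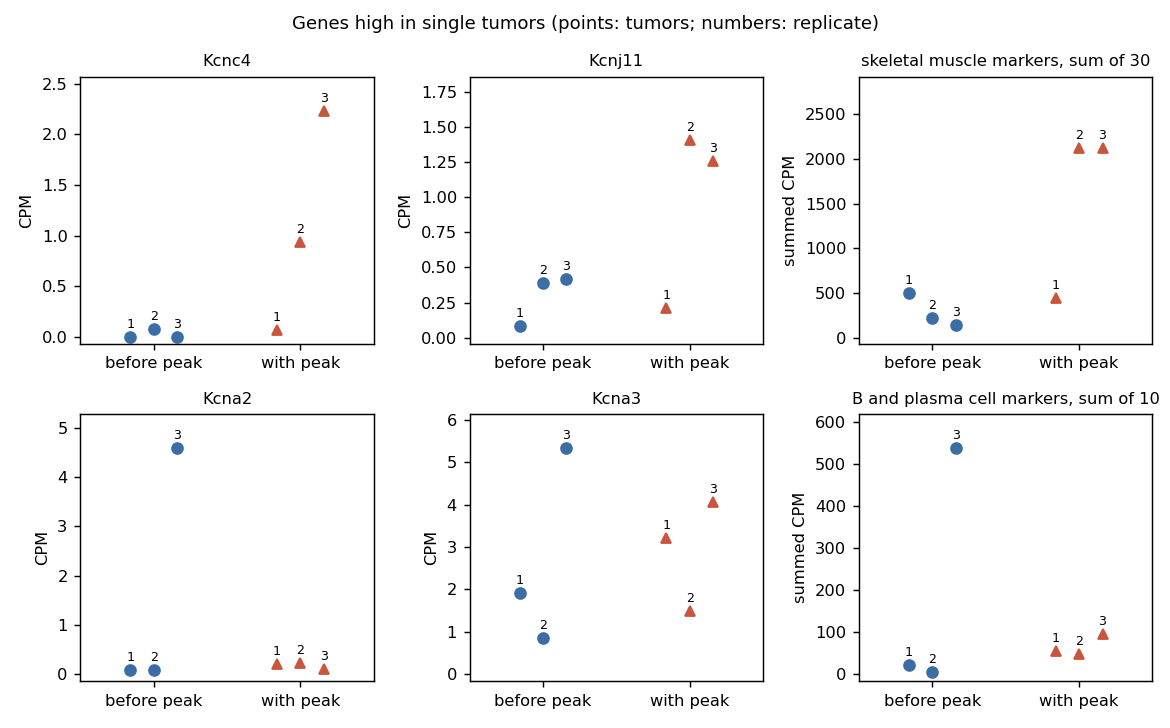
CPM of Kcnc4, Kcnj11, Kcna2 and Kcna3 in each tumor beside the summed CPM of 30 skeletal muscle and 10 B and plasma cell markers; points are tumors with their replicate number. Kcnc4 and Kcnj11 are high in with-peak tumors 2 and 3, and Kcna2 is high in before-peak tumor 3 alone.

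Some members were higher in 1 tumor than in any other by a set ratio, which some of them barely met. They were found after their values were seen, as genes with at least 10 counts in a tumor and a level of at least 2 times that of every other tumor. Before-peak tumor 3 held 3 of the 65 members (Kcna2, Kcng3 and Kcnip3), with-peak tumor 2 held 2 (Kcng2 and Kcns3), and with-peak tumors 1 and 3 held 1 each (Kcnj4 and Kcnc4, the latter also raised in with-peak tumor 2). Over all genes of the table the shares were 0.213%, 0.795% and 1.99% in before-peak tumors 1, 2 and 3 and 0.591%, 1.17% and 0.451% in with-peak tumors 1, 2 and 3. Kcna2, the Kv1.2 channel best known from axons, had 55 counts in before-peak tumor 3 and 1 to 3 in each of the other 5. Kcng3, a subunit that does not conduct by itself, had 14 counts there and 0 in the others. This is the tumor with the highest B and plasma cell sum, and its 14 T and NK cell markers summed to 331 CPM against 24.4 to 93.1 CPM elsewhere. The neuron marker sum was 5.33 CPM there, inside the range of the other 5 tumors, and single neuron markers went both ways. Gap43 and Uchl1 were lowest there, at 0.08 and 0.17 CPM, and Nefm, Rbfox3 and Elavl4 were at 0 CPM. Nefh was highest there, at 1.5 CPM against 0.08 to 0.39 CPM elsewhere, as was Prph, at 0.67 CPM against at most 0.49 CPM. The 10 Schwann cell and glia markers were also highest in sum there, at 94.99 CPM against 65.1 to 89.4 CPM. The part of any of these cell types in the Kcna2 and Kcng3 values was not tested.

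Other potassium-handling genes were read from a list of 40 pumps, cotransporters, auxiliary subunits and regulators. Of these, 35 were in the table and 29 were tested, 15 above 0 and 14 below with a median log2 fold change of 0.02. None passed over all genes by edgeR or DESeq2. At an unadjusted p under 0.05 by edgeR, 2 were higher, against 6.12% of all tested genes, and 2 were lower, against 3.38%. Of these genes, 3 are described. Tmem38a, a potassium-permeable channel of the sarcoplasmic reticulum, was at 8.91, 5.79 and 3.25 CPM before the peak and at 7.79, 12.1 and 17.4 CPM with it, a log2 fold change of 1.05 (SE 0.41; adjusted p by edgeR 0.478). It was highest in the muscle-rich pair, and with-peak tumor 1 lay within the before-peak range.

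Slc12a2, the sodium-potassium-chloride cotransporter NKCC1, was at 128, 103 and 100.1 CPM before the peak and at 81.2, 95.2 and 87.3 CPM with it. Its groups did not overlap, as for 7.38% of all tested genes in that direction. The log2 fold change was -0.33 (SE 0.13, adjusted p by edgeR 0.477). Slc12a3, the thiazide-sensitive cotransporter, was at 1.52 to 1.88 CPM before the peak and at 0.28 to 0.87 CPM with it for a log2 fold change of -1.81 (SE 0.60; adjusted p by edgeR 0.397). Lrrc38, a gamma subunit of BK channels, did not pass the filter, with 1, 1 and 0 counts before the peak and 0, 7 and 5 with it. It followed the muscle-rich pair by the ratio rule, as did 1.16% of all genes in the table. Its level was 0.55 and 0.49 CPM in that pair and 0.08 CPM or less elsewhere. Abcc9, the sulfonylurea receptor that assembles with Kir6 pores, was at 14.9 to 30.6 CPM in all 6 tumors with overlapping groups.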

How the data were processed

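RNA from 6 snap-frozen 4T1 tumors was extracted with Trizol, selected with oligo(dT) and sequenced as unstranded paired-end libraries, per the labels' protocols. The authors deposited raw counts for each gene, 1 column per tumor. FastQC, STAR and build mm10 are named in the submitters' processing notes; how reads were assigned to genes is not given in the sources used here. Of 23508 gene identifiers, 23479 matched GENCODE M21, which gave symbols, positions on GRCm38 and exon lengths.

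Counts were tested with edgeR 4.0.16 (limma 3.58.1, R 4.3.3): TMM scaling, filterByExpr (minimum count 10, minimum total 15; 16755 genes kept), robust quasi-likelihood fit, two-sided, Benjamini-Hochberg adjustment over all genes, threshold 0.05. The fit was tested on simulated data. SE is the fold change over the square root of F. Reads opposite a gene cannot be told apart without strand: 12 of 32 tested members share exon bases with an antisense gene. Alternatives were other scalings and filters, DESeq2 1.42.0, limma-voom, a replicate block and libraries left out. The named members are those with an unadjusted p under 0.05, those high in with-peak tumors 2 and 3 alone, the highest of each subfamily per kilobase, and a fixed set of names; of other potassium-handling genes, those with an unadjusted p under 0.05. Some genes that meet these rules are not reported here. Others were picked after their values were seen. The members and lists were chosen with earlier results of these data known. Within groups, the chi-square between library pairs was 14.3 to 24.2 times its degrees of freedom, so none was treated as a duplicate.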

Additional observations from a re-analysis of the deposited data

How the results depend on the processing

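No alternative moved a member past the threshold except DESeq2, which called 1, Kcnk13 (log2 fold change 1.38, adjusted p = 0.0408; 0.238 to 0.876 in the other 14 alternatives). Over all genes, 29 passed without a filter, 266 by DESeq2 and 1 with the replicate block, and 0 to 17 with 1 library left out (17, 13 and 9 without before-peak tumor 2, before-peak tumor 3 and with-peak tumor 1); the cause was not tested. Members at an unadjusted p under 0.05 numbered 1 higher with library size alone, DESeq2 and the replicate block, Kcnk13 each time. Over all genes 768, 1115 and 774 of 16755 were higher in those fits. Without with-peak replicates 2 and 3, the log2 fold change was 0.92 for Kcnk13 and 1.07 for Kcnk5. They numbered 2 lower without a filter, by DESeq2 and by limma-voom, Kcnk2 and Kcnip3 each time. Over all genes 747 of 23503, 459 of 16755 and 590 of 16755 were lower in those fits. With 1 library left out they were 2 to 3 higher (3 without before-peak tumor 3 or with-peak tumor 1). They were 1 to 3 lower (3 without before-peak tumor 3, and 2 without before-peak tumor 2 or with-peak tumor 1 or 2). Kcnk2 was among the lower members each time, joined by Kcnk1 and Kcnn4 without before-peak tumor 3. Kcnip3 joined it without before-peak tumor 2 or with-peak tumor 2, and Kcnh2 without with-peak tumor 1. Over all genes, 686 to 1268 were higher and 341 to 620 lower in these fits, of 17153 to 17371. Kcnk13 was among the higher members each time, and Kcnk6 only without with-peak tumor 3. The others were Kcnc4 (without before-peak tumor 1, 2 or 3 or with-peak tumor 1), Kcnj11, Kcnma1 and Kcnk5. Kcnc4 and Kcnj11 were picked for high values in with-peak tumors 2 and 3, so their entries lend no support. Among tested members, 1 followed with-peak replicates 2 and 3 at a ratio of 1.5, Kcnk13. Without a filter, 2 of 65 followed at a ratio of 2, and Kcnk10, at 1.68, also passed 1.5. The share over all genes at 1.5 is not given, so whether these members stand out at that ratio is not known. In the fit without with-peak replicates 2 and 3 the lone with-peak tumor is assumed to vary like the others.

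Of 299 log2 fold changes of 20 named genes under alternatives, 17 turned direction, in 6 members that passed no test. With library size alone Kcnab2 was at -0.0288 and Kcne4 at -0.003. Without with-peak replicates 2 and 3, Kcnab2 was at -0.0525, Kcne4 at -0.13, Kcnh2 at 0.50, Kcnj8 at -0.0602 and Kcnq1 at 0.21. With 1 library left out the ranges were -0.31 to 1.06 for Kcna3, -0.11 to 0.21 for Kcnab2, -0.32 to 0.64 for Kcne4, -0.14 to 0.60 for Kcnj8 and -0.55 to 0.32 for Kcnq1. The labels do not say that replicate numbers pair tumors, so the numbers were not read as pairs. Deviations from the group means in tumors of the same number had correlations of -0.06, -0.10 and 0.03. With 3 tumors per group, such values cannot exclude pairing. Most members rest on few counts, which limits the size of difference these data can show.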
